A study of Mus musculus with 34 samples.

Results

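The smooth muscle contractile genes measured here were Myh11, Acta2, Tagln and Cnn1, taken as all 6 probe sets that the array annotation assigns to these symbols. They were 4 of 12393 annotated genes on an Affymetrix array of 22690 probe sets. Each gene was followed through 6 groups of mouse skeletal muscle, and each mutant group was set against its own wild-type (WT) group. Anterior tibialis came from 3-month-old muscle glycogen synthase knockout mice (KO, 4 arrays) and WT mice (4 arrays). Medial gastrocnemius came from KO mice (3 arrays) and WT mice (5 arrays) at 3 months. It also came from mice of the GSL30 line (5 arrays), which overexpress muscle glycogen synthase, and from WT mice (5 arrays) at 8 months. Liver of KO mice (4 arrays) and WT mice (4 arrays) at 3 months was used for levels only. The labels give the mixed strain C57BL6/129SV for the tibialis arrays. They do not say which promoter or cell type drives the GSL30 transgene, whether the knockout is present in every cell, or whether arrays stand for different animals, so p-values measure the spread between these arrays.

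Skeletal muscle RNA holds transcripts of smooth muscle because arterioles and larger vessels run between the fibres and are wrapped in smooth muscle cells. Smooth muscle myosin pulls on actin filaments after calcium and calmodulin activate a kinase that phosphorylates its light chain, and this sets vessel tone. Serum response factor and its partner myocardin drive many of these genes through CArG boxes in their promoters.

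The 250 bases before and 50 bases after the annotated start are shown for Acta2, which fell in GSL30 muscle, and for Cnn1, which did not pass a test there. These 2 of the 4 genes had an entry in the RefSeq promoter table (build GRCm38.p6). The Acta2 window is chr19:34255324-34255623 on the minus strand, and the Cnn1 window is chr9:22099003-22099302 on the plus strand. Capitals mark matches to CCNNNNNNGG with at most 1 middle base other than A or T (CArG-like), and to CATTCC on either strand, the letters bound by TEAD factors.
Acta2: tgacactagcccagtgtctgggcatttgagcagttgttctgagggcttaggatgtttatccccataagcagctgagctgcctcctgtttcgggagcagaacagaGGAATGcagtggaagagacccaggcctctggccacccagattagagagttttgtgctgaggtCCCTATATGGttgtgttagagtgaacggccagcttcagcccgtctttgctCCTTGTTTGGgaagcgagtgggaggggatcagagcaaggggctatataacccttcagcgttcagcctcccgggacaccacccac
Cnn1: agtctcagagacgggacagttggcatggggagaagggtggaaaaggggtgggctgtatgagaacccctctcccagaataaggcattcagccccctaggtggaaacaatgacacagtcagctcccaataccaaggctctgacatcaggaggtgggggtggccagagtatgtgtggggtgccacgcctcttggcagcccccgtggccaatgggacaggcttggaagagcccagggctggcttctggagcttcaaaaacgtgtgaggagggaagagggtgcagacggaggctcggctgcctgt

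The Acta2 window held 2 CArG-like matches, CCCTATATGG at positions -84 to -75 and CCTTGTTTGG at -34 to -25 relative to the start, counted as 0. It held none without a base other than A or T in the middle. It also held CATTCC once, read as GGAATG at -146 to -141, and 3 CANNTG matches (E-boxes). The Cnn1 window held 1 CANNTG match and none of the other letters searched. Neither window held TATAAA. No match overlapped another, and both strands were searched. Over the 32851 promoters of the table, CArG-like matches were in 9.98%, fully A or T boxes in 1.63%, CATTCC in 14.7%, CANNTG in 72.3% and TATAAA in 13.6%. A match is a description of these letters and not a binding site.

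The labels and the arrays were checked against the targeted gene and the tissues. Gys1, which encodes muscle glycogen synthase, read 34.2 to 72.5 in KO tibialis against 8184 to 9958 in WT, 58.1 to 165 in KO gastrocnemius against 3955 to 6378 in WT, and 7896 to 10404 in GSL30 gastrocnemius against 5840.0 to 7185 in WT, by its brighter probe set. The deposited values are intensities on a linear scale, with array medians of 296.1 to 440.3, and the number of arrays limits the precision. A hepatocyte score, the mean log2 value of 11 hepatocyte markers, was 7.47 to 8.00 in tibialis and 15.5 to 15.9 in liver. Gastrocnemius arrays lay above tibialis, at 11.6 to 13.5 in KO and 11.7 to 15.7 in WT at 3 months, and at 8.03 to 8.99 in GSL30 and 9.20 to 10.9 in WT at 8 months, so that the highest WT array at 3 months reached the liver range. Hepatocyte transcripts therefore differ between arrays of the gastrocnemius groups. Fits with this score as a covariate, or without the 6 gastrocnemius arrays of high score, are given beside part of the gastrocnemius results. A high score was over 13 at 3 months or 9.5 at 8 months. WT gastrocnemius replicate 2 at 3 months also stood apart, with a summed intensity of 1798160 for skeletal fibre markers against 428851 to 576629 in the other WT arrays.

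**Figure D1:**
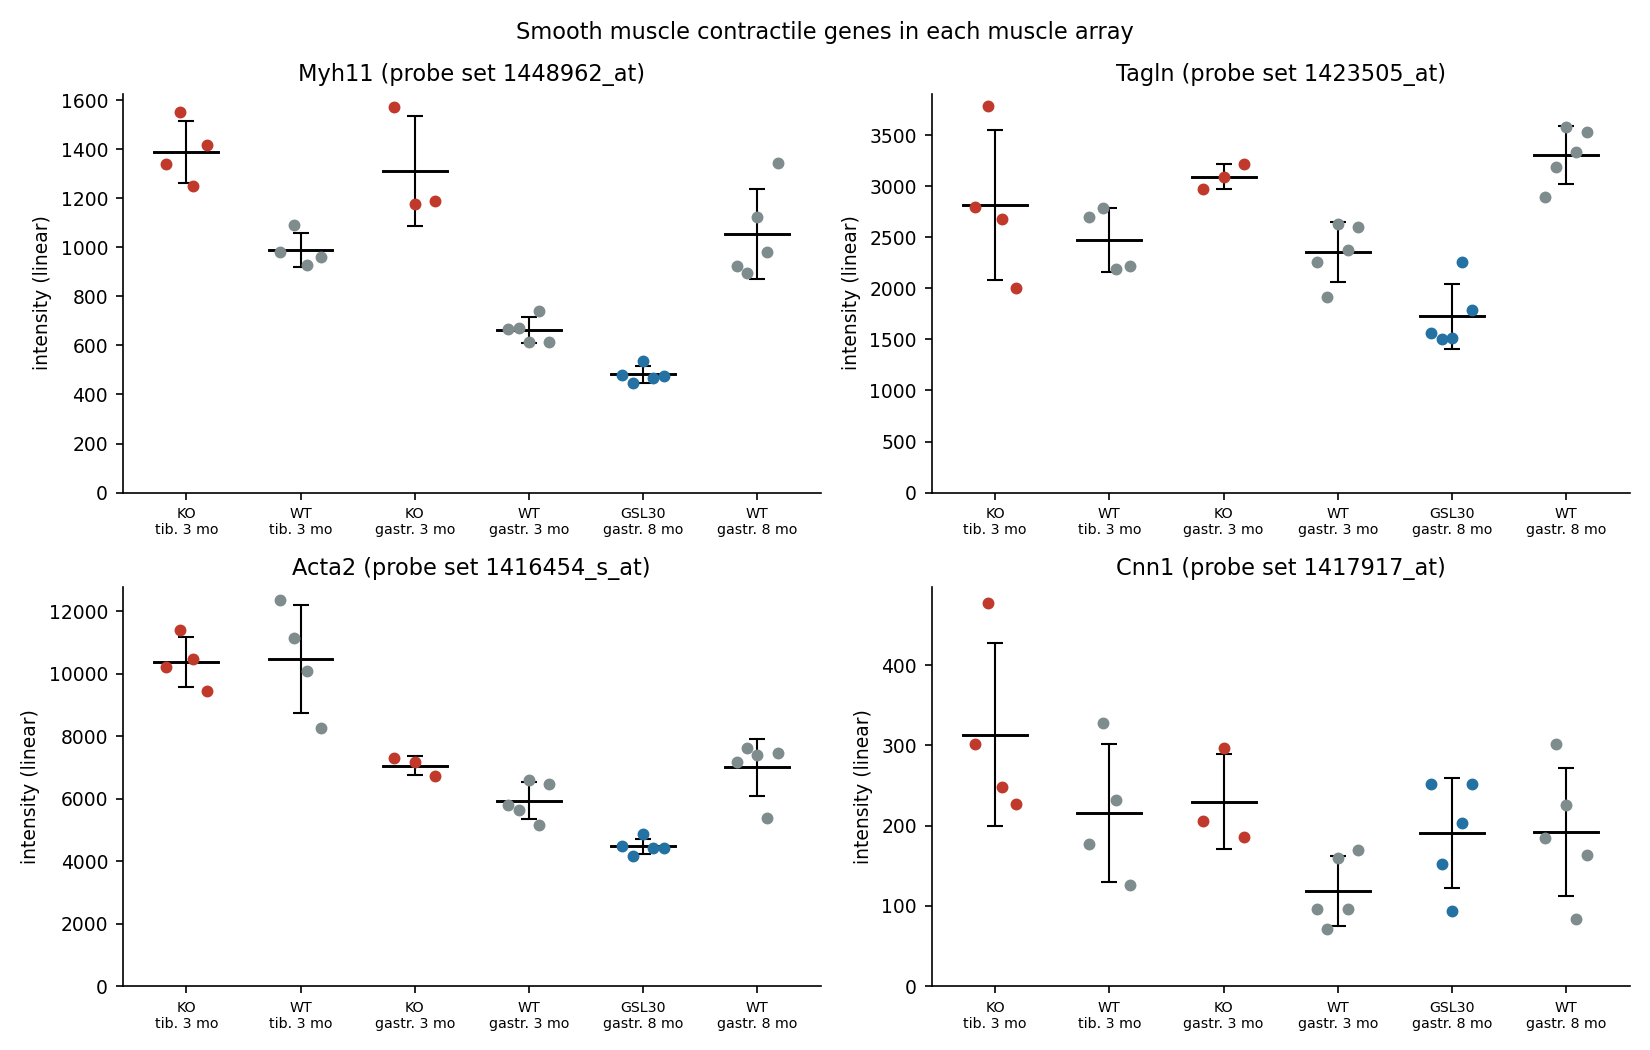
Intensity (linear scale) of the brighter probe set of Myh11, Tagln, Acta2 and Cnn1 in each of the 26 muscle arrays. Points are arrays, the wide bar is the group mean and the error bar is the SD. GSL30 arrays lie below their WT group for Myh11, Tagln and Acta2, and KO gastrocnemius arrays lie above theirs for all 4 genes.

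Myh11, the smooth muscle myosin heavy chain that forms the thick filament, is measured by 1 bright and 1 dim probe set. The bright one was highest in KO tibialis (1389 ± 128, SD, n = 4) and KO gastrocnemius (1312 ± 224, n = 3). WT gastrocnemius at 8 months (1054 ± 185, n = 5) and WT tibialis (990.0 ± 69.5, n = 4) came next, and each of these 4 groups overlapped its neighbour in this order. WT gastrocnemius at 3 months (661 ± 52.9, n = 5) and GSL30 gastrocnemius (482 ± 34.5, n = 5) lay lower, each without overlap with the group above it. Liver read 54.7 to 148, below every muscle array.

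Acta2 encodes the smooth muscle actin of the thin filament. Its bright probe set carries the suffix that marks probes able to bind more than 1 transcript, so signal from other actins cannot be told apart from Acta2. It fell into 3 bands that did not overlap. Tibialis was highest (KO 10377 ± 795 and WT 10459 ± 1734, n = 4 each). KO gastrocnemius (7053 ± 300.1, n = 3), WT gastrocnemius at 8 months (7004 ± 916, n = 5) and WT gastrocnemius at 3 months (5932 ± 592, n = 5) formed the middle band. GSL30 gastrocnemius was lowest (4468 ± 253, n = 5), and liver read 456 to 826.

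Tagln encodes transgelin (SM22-alpha), an actin-binding protein used as an early smooth muscle marker. Its lowest mean was 1725 ± 321 in GSL30 gastrocnemius and its highest 3306 ± 280.0 in WT gastrocnemius at 8 months, and every group overlapped its neighbour in the order. Liver read 101 to 507 in KO and 156 to 258 in WT. Cnn1 encodes calponin 1, which binds actin and restrains the myosin motor in differentiated smooth muscle. Its means ran from 313 ± 114 in KO tibialis to 118 ± 43.5 in WT gastrocnemius at 3 months, and again every group overlapped its neighbour. Liver read 35.9 to 69.9 in KO and 38.5 to 75.3 in WT. The WT gastrocnemius groups themselves differed in level. Myh11 read 895 to 1345 at 8 months against 613 to 742 at 3 months, and Tagln read 2890.4 to 3584 against 1914 to 2631, both without overlap. Age and the code prefix in the sample titles both separate these WT groups and cannot be told apart, and the difference was not tested.

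In KO tibialis, Myh11 read above WT on every array but no smooth muscle contractile gene passed the test. Acta2 had nearly the same mean in both groups. Tagln and Cnn1 had higher KO means with overlapping arrays. A probe set passed when its adjusted p was under 0.05, from limma with Benjamini-Hochberg adjustment over the 13576 probe sets that were not dim, on log2(intensity + 50).

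Myh11 read 1339, 1549.8, 1249 and 1419 in the KO tibialis arrays, against 979.7, 1089, 929 and 962 in the WT arrays. The lowest KO array lay above the highest WT array. The log2 difference was 0.47 (SE 0.11, n = 4 and 4, adjusted p = 0.0804), with a 95% interval of 0.22 to 0.71, so the difference was larger than the spread between arrays but not past the threshold. Among all tested probe sets 5.2% read higher in KO without overlap and 1.4% passed the test in either direction.

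Acta2 read 10225, 11382, 10451 and 9451 in KO tibialis, against 12359, 11133, 10076 and 8266 in WT. The KO arrays lay inside the WT range. The log2 difference was 0.0010 (SE 0.14, 95% interval -0.31 to 0.31, adjusted p = 0.998), and its sign turned under other scalings. Tagln read 2798, 3789.7, 2684 and 2007 in KO, against 2701, 2791, 2194 and 2219.5 in WT (0.16, SE 0.19, adjusted p = 0.727). KO replicates 1 and 2 were above all WT arrays and replicate 4 was below them. Cnn1 read 302, 477, 248 and 226 in KO, against 177, 328, 231 and 126 in WT (0.46, SE 0.26, 95% interval -0.13 to 1.05, adjusted p = 0.441). The groups overlapped and the interval held 0.

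In KO gastrocnemius at 3 months, the brighter probe sets of all 4 genes read higher in every KO array than in any WT array. None passed the test across probe sets, and Myh11 came nearest, with a KO mean 1.98-fold that of WT. Among the probe sets tested, 7.26% read higher in KO without overlap and 0.147% passed the test in either direction. A higher reading without overlap was thus common in this comparison, and the differences of the 3 genes tested ran from 0.25 for Acta2 to 0.93 for Myh11 on the log2 scale.

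Myh11 read 1571, 1176 and 1189.7 in the KO gastrocnemius arrays, against 668, 670.2, 614, 742 and 613 in the WT arrays. The gap between the groups was wider than the spread of the WT arrays. The log2 difference was 0.93 (SE 0.14, 95% interval 0.61 to 1.25, adjusted p = 0.0597), number 22 of 13576 by p. Leaving out each array in turn gave 0.797 to 0.998 with an adjusted p of 0.0716 to 0.213. It passed in 6 of 12 other settings, among them the hepatocyte score as a covariate (1.03, adjusted p = 0.0364), and did not pass without the arrays of high score (0.89, adjusted p = 0.126).

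Acta2 read 7290.1, 7154 and 6716 in KO gastrocnemius, against 5799, 5642, 6594, 5168 and 6457 in WT (0.25, SE 0.13, adjusted p = 0.488). Tagln read 2969, 3096 and 3222 in KO, against 2258, 1914, 2631, 2377 and 2605 in WT (0.39, SE 0.14, adjusted p = 0.358). Both genes separated the groups by a narrow gap. WT replicates 3 and 5, the only WT arrays under the hepatocyte limit of 13, lay nearest to KO. Without the arrays of high score the Acta2 difference was 0.086, its lowest in 12 other settings. The lowest for Tagln in those settings was 0.27. Neither gene passed in any of them. Cnn1 was too dim on average for the test across probe sets. It read 206, 297 and 186 in KO, against 95.4, 71.3, 159.6, 96 and 169.5 in WT, and an exact two-sided permutation test gave p = 0.0357, with a smallest possible p of 0.0179 in 56 splits. This was 1 of 8 such tests of dim probe sets, and the p is not adjusted for them. For Cnn1 too, WT replicates 3 and 5 lay nearest to KO.

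In GSL30 gastrocnemius at 8 months, Myh11, Tagln and Acta2 fell and Cnn1 did not differ detectably. The mean of Myh11 fell to 0.457-fold of the WT mean, that of Tagln to 0.522-fold and that of Acta2 to 0.638-fold. Every GSL30 array read below every WT array for each of these 3 genes. All 3 genes that could be tested passed, where 4.31% of the 13576 probe sets passed in either direction, 2.2% fell, and 3.59% read lower without overlap. The genes were chosen with earlier results of these data known, so these shares describe the comparison and do not test the set. In these bulk samples fewer smooth muscle cells and less RNA in each cell cannot be told apart.

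Myh11 read 480.4, 445, 538, 469 and 475 in the GSL30 arrays, against 926, 895, 1125, 981 and 1345 in the WT arrays. The GSL30 values were tight, and even the lowest WT array was well above them. The log2 difference was -1.04 (SE 0.13, 95% interval -1.32 to -0.77, n = 5 and 5, adjusted p = 0.00323), number 9 of 13576 by p. It passed in all 10 fits that left out an array.

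Acta2 read 4476, 4160.1, 4863, 4429 and 4414 in GSL30, against 7157, 7622, 7385, 5393 and 7461 in WT. WT replicate 4 was low in its group yet still above all GSL30 arrays. The log2 difference was -0.63 (SE 0.12, adjusted p = 0.0167), and -0.72 without WT replicate 4. Without GSL30 replicate 2 the call was lost (-0.61, adjusted p = 0.0505), in a fit that called 182 probe sets in place of 585.

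Tagln read 1563, 1506, 1509, 2261 and 1785 in GSL30, against 2890.4, 3190.5, 3584, 3336 and 3528 in WT. GSL30 replicate 4 was the highest of its group and remained below the lowest WT array. The log2 difference was -0.93 (SE 0.13, adjusted p = 0.00568), and it passed in all 10 fits that left out an array. Cnn1 read 252, 153, 93.3, 204 and 251 in GSL30, against 184, 302, 226, 84.1 and 164 in WT. The GSL30 arrays lay inside the WT range, and the exact two-sided permutation test gave p = 0.968 for a log2 difference of 0.0083, where the smallest possible p was 0.00794.

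The hepatocyte score was lower in every GSL30 array than in any WT array at 8 months. With this score as a covariate Myh11 had a log2 difference of -1.12 (adjusted p = 0.105), Tagln -0.94 (adjusted p = 0.145) and Acta2 -0.50 (adjusted p = 0.242), in a fit in which none of the 13576 probe sets passed. Without the 2 WT arrays of the highest score, Myh11 and Tagln passed and Acta2 did not (-0.56, adjusted p = 0.0837). The part of hepatocyte transcripts in these results was not tested beyond these fits.

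**Figure D2:**
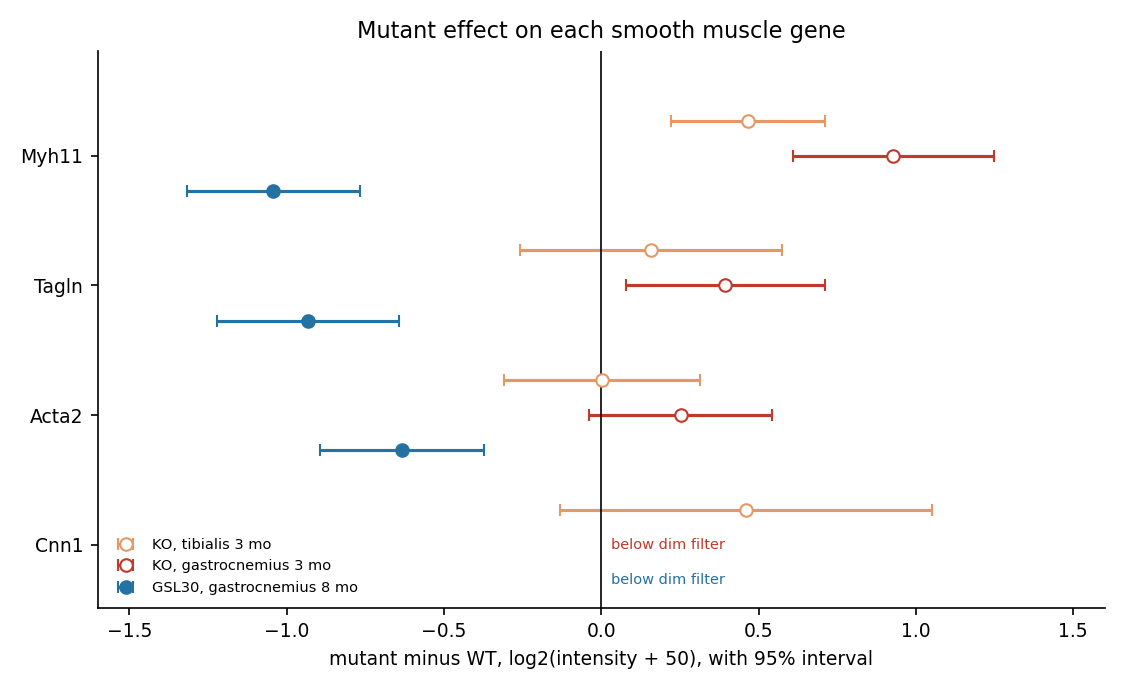
Log2 difference of mutant minus WT for each gene, on log2(intensity + 50), with its 95% interval from limma. Filled points passed an adjusted p of 0.05 and open points did not. The 3 filled points are Myh11, Tagln and Acta2 in GSL30, all to the left of 0, and Cnn1 in gastrocnemius was too dim for the fit.

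The dim probe sets did not carry the same pattern throughout. The dim Myh11 probe set, drawn from the same accession as the bright one, read 42, 27.9 and 26.4 in KO gastrocnemius, against 16.2, 16.4, 20.2, 9.8 and 22.7 in WT. The groups did not overlap (exact two-sided permutation p = 0.0179, the smallest that 56 splits can give). It overlapped in GSL30 and WT (means 32.4 and 26.9, exact p = 0.516) and in KO and WT tibialis (means 55.8 and 58.7, exact p = 0.971). The dim Acta2 probe set read 14.1 to 204 in the muscle arrays and overlapped in every comparison, with exact p of 0.114 in tibialis, 0.464 in KO gastrocnemius and 0.706 in GSL30. These means lie below the level that 40% of probe sets fell under, which was 232 to 256.

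The GSL30 and KO effects in gastrocnemius differed for all 3 genes that could be tested, taken as the GSL30 difference minus the KO difference over 18 arrays. Myh11 differed by -1.97 (SE 0.18, 95% interval -2.35 to -1.59, adjusted p = 1.94e-05), number 2 of 13576 by p. Tagln differed by -1.33 (SE 0.19, adjusted p = 9.74e-04) and Acta2 by -0.89 (SE 0.17, adjusted p = 0.00692). In this contrast 2.3% of all probe sets passed, 1.65% with a lower and 0.648% with a higher GSL30 effect. All 3 calls held in the 18 fits that left out an array. Without the 6 arrays of high hepatocyte score Tagln (-1.18, adjusted p = 0.0654) and Acta2 (-0.64, adjusted p = 0.255) lost the call and Myh11 kept it. That fit called 55 probe sets in place of 312. Other genes named below for this contrast are given from the fit of all 18 arrays only. Age and the code prefix in the sample titles differ between these comparisons along with genotype, and their parts cannot be told apart.

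Of 12880 probe sets tested in both gastrocnemius comparisons, 73 (0.567%) read higher in KO and lower in GSL30, each without overlap with WT, and Myh11, Tagln and Acta2 were among them. The opposite pattern was found for 19 (0.148%), and 62 (0.481%) read higher in both. The KO effect did not differ detectably between gastrocnemius and tibialis. Gastrocnemius minus tibialis was 0.46 for Myh11 (SE 0.17, adjusted p = 0.436), 0.24 for Tagln (adjusted p = 0.737) and 0.25 for Acta2 (adjusted p = 0.633). Limma called 2 probe sets (0.0147%) in that contrast, and 1364 had an unadjusted p under 0.05.

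**Figure D3:**
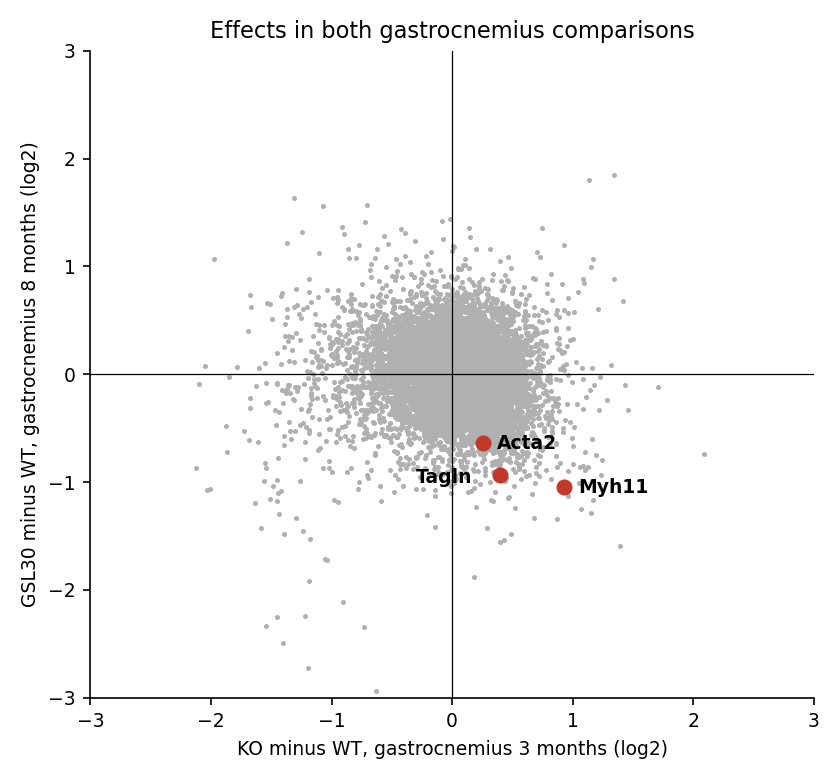
Log2 difference of KO minus WT at 3 months (horizontal axis) against GSL30 minus WT at 8 months (vertical axis) in gastrocnemius, for each of 12880 probe sets tested in both. Red points are the bright probe sets of Myh11, Tagln and Acta2, all in the lower right, and 2 probe sets lie outside the axes.

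Other smooth muscle contractile and regulatory genes moved in both directions in GSL30 muscle. Of 24 tested, 4 fell, 2 rose and 18 did not pass, where 2.2% of all probe sets fell and 2.11% rose. Those that fell were Mylk, the kinase that activates smooth muscle myosin (-0.73, SE 0.15, adjusted p = 0.0211), Cald1, caldesmon of the thin filament (-0.90, adjusted p = 0.0148), Cnn3, a calponin of many cell types (-0.63, adjusted p = 0.0444), and Myl9, the regulatory light chain (-0.65, adjusted p = 0.0491). Those that rose were Tpm2, a tropomyosin (0.82, adjusted p = 0.0108), and Des, the intermediate filament desmin (0.75, adjusted p = 0.0163). Both are also made by skeletal muscle fibres. The median log2 difference of the list was -0.15, against 0.025 over all probe sets. Mylk averaged 1562 ± 245 in GSL30 and 2643 ± 463 in WT, and Cald1 averaged 1489 ± 375 in GSL30 and 2744 ± 143 in WT. Without the arrays of high hepatocyte score Mylk (-0.80, adjusted p = 0.0379) and Tpm2 (0.83, adjusted p = 0.0343) passed and the other 4 did not. With the score as a covariate, the fit in which no probe set passed, Mylk had -1.06, Cald1 -1.15, Cnn3 -0.55, Myl9 -0.52, Tpm2 0.94 and Des 0.82.

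In the KO comparisons none of the other smooth muscle genes passed, of 26 tested in tibialis and 23 in gastrocnemius. Their median log2 difference was 0.25 in KO tibialis (18 positive, 8 negative), against 0.039 over all probe sets, of which 56.7% were positive. In KO gastrocnemius it was 0.30 (22 positive, 1 negative), against 0.045 and 56.5%. The mean log2 value of the 27 list genes was lowest in WT replicates 2 and 4 (10.25 and 10.53). These were the WT arrays of highest hepatocyte score (15.7 and 14.8). It was 10.67 to 10.71 in the other WT arrays and 10.76 to 10.89 in KO. The part of hepatocyte transcripts in this shift was not tested. Mylk had 0.46 in tibialis (adjusted p = 0.26) and 0.60 in gastrocnemius (adjusted p = 0.23). Between the gastrocnemius effects, GSL30 minus KO, Mylk (-1.33, adjusted p = 0.00226) and Flna, an actin crosslinker (-0.99, adjusted p = 0.0133), passed.

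Of the transcriptional regulators of smooth muscle genes, 2 of 17 tested fell in GSL30 and none rose, against 2.2% and 2.11% of all probe sets. The median log2 difference of the list was -0.050, with 6 positive and 11 negative genes. Notch3, a receptor of arterial smooth muscle cells and pericytes, averaged 1409 ± 165 in GSL30 and 2080 ± 234 in WT (-0.55, SE 0.12, adjusted p = 0.0298). Csrp2, a LIM protein of smooth muscle, averaged 583 ± 63.8 in GSL30 and 855 ± 114 in WT (-0.51, SE 0.12, adjusted p = 0.0385). Neither passed without the arrays of high hepatocyte score (-0.49 each, adjusted p = 0.111 for Notch3 and 0.109 for Csrp2) or with the score as a covariate (-0.39 for Notch3 and -0.60 for Csrp2). Srf, which encodes serum response factor, did not pass (0.56, adjusted p = 0.0813, by its brighter probe set). None of 18 regulators passed in either KO comparison. Notch3 also differed between GSL30 and KO effects (-1.08, adjusted p = 0.00738).

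Markers of other vessel cells were read beside these genes. Endothelial markers were lower for 14 of 14 genes in GSL30, with a median of -0.60. Of these, 7 fell with at least 1 of their probe sets (21 in all) and 6 by their brightest, where 2.2% of all probe sets fell. Cdh5, the endothelial cadherin, averaged 1834 ± 173 in GSL30 and 3120.0 ± 346 in WT (-0.75, adjusted p = 0.00706). Pecam1, a junction protein, had -0.81 (adjusted p = 0.0155). Tie1 (-0.92, adjusted p = 0.0187), Cldn5 (-0.81, adjusted p = 0.0192), Vwf (-0.71, adjusted p = 0.0302) and Esam (-0.64, adjusted p = 0.012) fell, and Egfl7 fell by a dimmer probe set (-1.24, adjusted p = 0.00334). In the KO comparisons no endothelial marker passed, and their median was 0.40 in tibialis and 0.29 in gastrocnemius. Summed over the list, endothelial markers read 27663 to 31015 in KO tibialis against 20348 to 24612 in WT, 25310.2 to 27399.9 in KO gastrocnemius against 17059 to 21499 in WT, and 17332 to 19719 in GSL30 against 25017 to 30370.4 in WT. No mutant range overlapped that of its WT group. In WT gastrocnemius at 3 months the lowest sums were those of replicates 2 and 4 (17865 and 17059), the WT arrays of highest hepatocyte score. Without the arrays of high hepatocyte score Cdh5, Cldn5, Tie1 and Egfl7 passed in GSL30 and Pecam1, Vwf and Esam did not. With the score as a covariate none of the 7 passed, at -0.74 for Cdh5, -0.67 for Pecam1, -1.07 for Tie1, -0.51 for Cldn5, -0.64 for Vwf, -0.71 for Esam and -1.45 for Egfl7.

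Pericyte markers, of cells that wrap capillaries, gave 2 lower calls of 8 tested in GSL30, where 2.2% of all probe sets fell. The list moved in both directions there, with 5 negative and 3 positive log2 differences and a median of -0.23. The 2 called genes are named next. They were Kcnj8, a potassium channel subunit (-0.66, adjusted p = 0.0294), and Pdgfrb, a growth factor receptor (-0.82, adjusted p = 0.0429). None of 9 passed in either KO comparison, where Kcnj8 had 0.58 in tibialis (adjusted p = 0.0531) and 0.53 in gastrocnemius (adjusted p = 0.28). The summed pericyte level was 27368 to 33655 in KO tibialis against 20374 to 27893 in WT, which overlapped, 25316 to 29362 in KO gastrocnemius against 19269 to 23546 in WT, and 18128 to 22331 in GSL30 against 23162 to 26368 in WT. Kcnj8 (-1.19, adjusted p = 0.00466) and Rgs5, a regulator of G-protein signalling abundant in pericytes (-0.80, adjusted p = 0.0081), differed between GSL30 and KO effects. For the pericyte sum too, WT gastrocnemius replicates 2 and 4 at 3 months were the lowest of their group (19269 and 19966). No marker of either vessel list was at 0 in any muscle array. Neither GSL30 call passed without the arrays of high hepatocyte score (Kcnj8 -0.59, adjusted p = 0.0605, and Pdgfrb -0.97, adjusted p = 0.0705) or with the score as a covariate (-0.48 for Kcnj8 and -1.30 for Pdgfrb). The part of vessel content in the smooth muscle values was not tested.

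**Figure D4:**
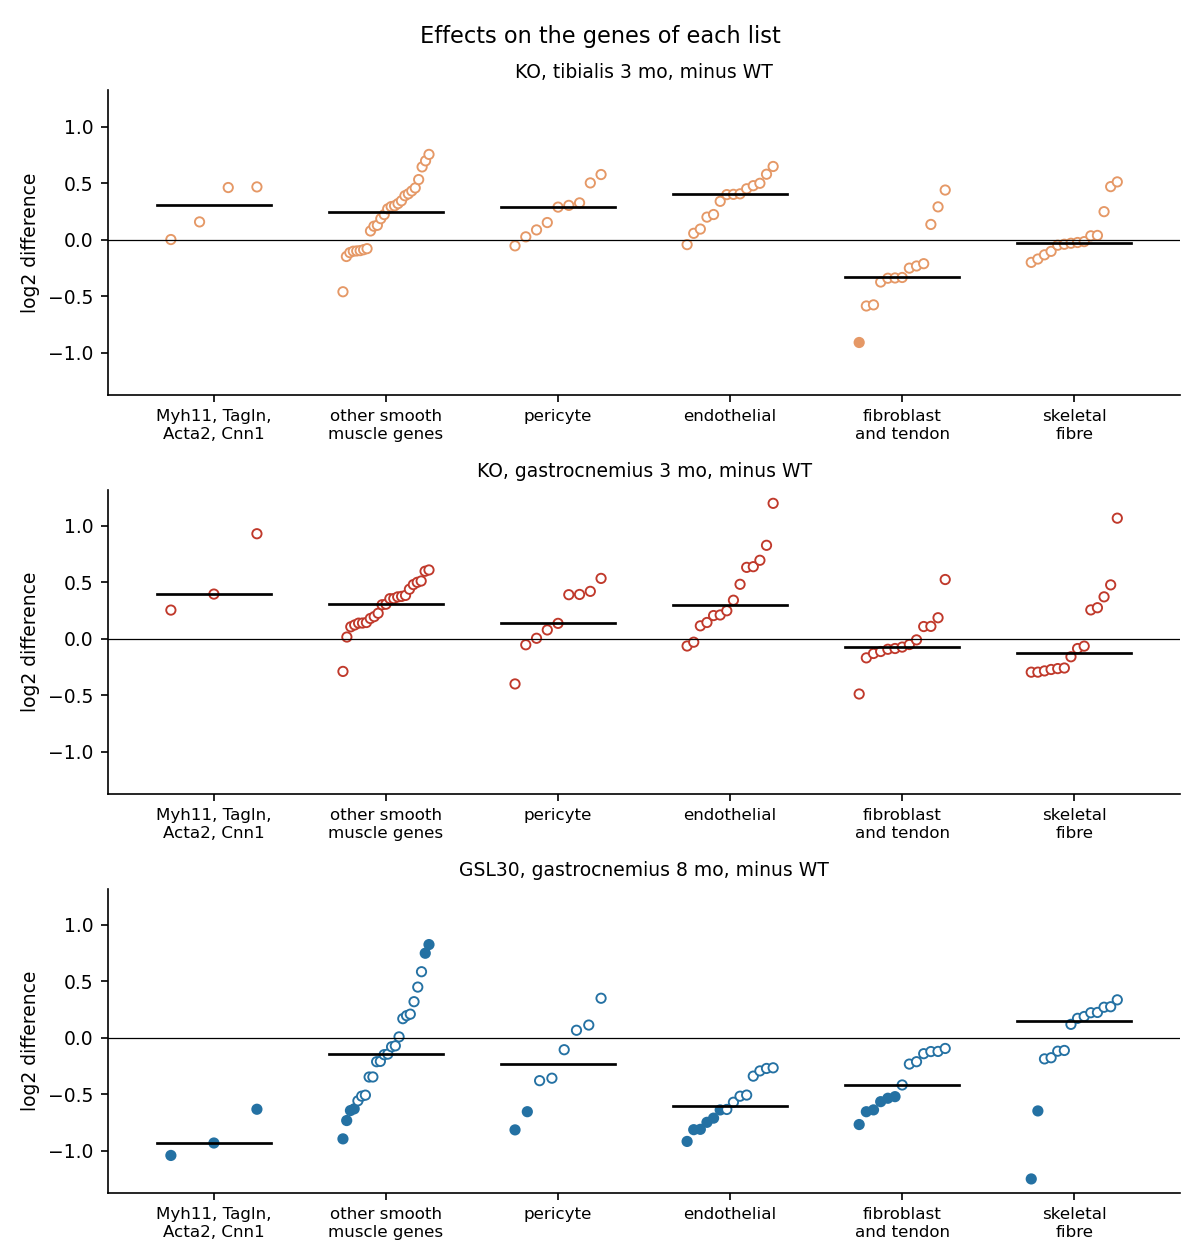
Log2 difference of mutant minus WT for each gene of 6 lists (brightest probe set) in the 3 comparisons, sorted within a list. Filled points passed an adjusted p of 0.05 and black bars are list medians. In GSL30 Myh11, Tagln and Acta2 lie below 0, as do all endothelial markers and all fibroblast and tendon markers tested.

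Fibroblast and tendon markers fell for 6 of 13 tested genes in GSL30 (Thbs4, Fmod, Fn1, Comp, Dpt and Pdgfra), with a median of -0.42, where 2.2% of all probe sets fell. Without the arrays of high hepatocyte score Thbs4 alone of these 6 passed (-0.77, adjusted p = 0.037). Fmod, a tendon proteoglycan, had -0.64 (adjusted p = 0.0497) in GSL30 and fell in KO tibialis too (-0.91, adjusted p = 0.0293), where the list median was -0.33. The list in KO gastrocnemius had no call and a median of -0.075. Hepatocyte markers fell for 4 of 7 tested genes in GSL30 (Ttr, Alb and Apoa2, and Apoa1 by a dimmer probe set), with a median of -1.45. In KO gastrocnemius all 11 were lower, with a median of -1.38 and no call. Of 5 Schwann cell markers tested in GSL30, 2 fell, by dimmer probe sets, where 2.2% of all probe sets fell. These were Mbp (-1.03, adjusted p = 0.00777, the smallest of its probe sets) and Sox10 (-0.62, adjusted p = 0.0471). By the brightest probe set none of the 5 passed, with 5 negative and a median of -0.55. Without the arrays of high hepatocyte score this Mbp probe set passed (-1.05, adjusted p = 0.038) and that of Sox10 was too dim for the test. The adipocyte gene Fabp4 rose in KO tibialis by a dimmer probe set (1.17, adjusted p = 0.00899), while its brightest did not pass (0.25, adjusted p = 0.311). In GSL30 Fabp4 fell by the same dimmer probe set (-1.48, adjusted p = 0.00134), while its brightest did not pass (-0.33, adjusted p = 0.265), and Cidec fell (-1.14, adjusted p = 0.0192). Of blood and macrophage markers none passed, and the smallest p were those of Alas2 in GSL30 (-0.64, adjusted p = 0.0517) and Adgre1 in KO gastrocnemius (-0.43, adjusted p = 0.288).

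Skeletal fibre markers gave 2 lower calls of 14 in GSL30, where 2.2% of all probe sets fell. These were the myosins Myh7 of slow fibres (-1.25, adjusted p = 0.00636) and Myh2 of fast oxidative fibres (-0.65, adjusted p = 0.0282). Tnni2, fast troponin I, fell in KO tibialis by a dimmer probe set (-0.69, adjusted p = 0.0202). Of 7 markers of developing or regenerating muscle tested in GSL30, 1 rose and 6 did not pass (4 positive, 3 negative). There 2.11% of all probe sets rose. In KO tibialis 2 of 7 rose (6 positive, 1 negative), where 0.663% of all probe sets rose, and in KO gastrocnemius none of 6 passed. Actc1, the cardiac actin made by developing muscle, rose in GSL30 (1.85, adjusted p = 0.00134) and KO tibialis (1.13, adjusted p = 0.044). Chrna1, an acetylcholine receptor subunit, rose in KO tibialis (0.74, adjusted p = 0.0451). Actc1 and Acta2 thus moved in opposite directions in GSL30. With the hepatocyte score as a covariate no marker of these other cell and fibre types passed in GSL30, and Myh7 had -1.61, Myh2 -0.63, Actc1 1.77, Cidec -1.24 and the Fabp4 probe set -1.21. Without the arrays of high score Myh7 (adjusted p = 0.0266), Actc1 (adjusted p = 0.0118) and the dimmer Fabp4 probe set (adjusted p = 0.0118) passed, and Myh2 (adjusted p = 0.0937) and Cidec (adjusted p = 0.0717) did not.

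Across the 26 muscle arrays, deviations from the group mean were compared between genes, as a description of arrays that share RNA and scaling. Acta2 and Tagln had a Pearson r of 0.39 and a Spearman rho of 0.50, Acta2 and Myh11 had 0.14 and 0.066, and Tagln and Myh11 had 0.16 and 0.14. Within groups, then, Myh11 varied largely apart from Acta2 and Tagln. Against the mean of 14 endothelial markers r was 0.62 for Acta2, 0.41 for Tagln and -0.23 for Myh11. Acta2 had an r of similar size with fibroblast and tendon (0.58), adipocyte (0.49) and pericyte markers (0.45). Against the mean of 24 other smooth muscle genes it was 0.61 for Acta2, 0.62 for Tagln and -0.13 for Myh11. The r farthest from 0 for Myh11 was -0.64, with the mean of 17 regulators. Of 8285 other genes ranked by their mean r with the 3 bright probe sets, the highest were Adcy4 (0.57), Tinagl1 (0.56), Tsc22d1 (0.55), Tpst2 (0.55), Anxa3 (0.54), Igbp1 (0.53), Marveld1 (0.53) and Clic4 (0.53). For all of them but Igbp1 the r with Myh11 was the lowest of the 3. Adcy4, for example, had 0.30 with Myh11, 0.63 with Acta2 and 0.78 with Tagln. None of these 8 passed in any of the 3 comparisons.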

How the data were processed

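The samples were 34 Affymetrix arrays of mouse muscle and liver, grouped by genotype, tissue and age from the labels. Per the labels' protocols, RNA was extracted with TRIzol and RNeasy and targets were made by standard Affymetrix procedures from about 5 µg (muscle) or 10 µg (liver) of total RNA. The deposited values are intensities on a linear scale, used as the authors gave them. No source used here names the software behind the probe summaries. The values show scaling of every array to 1 trimmed mean, which came to 1000.34 to 1000.49, and identical values made up at most 0.155% of any array pair.

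Negative values were raised to 0 before log2(intensity + 50) was taken, so log2 differences understate the change of dim probe sets. After dropping 64 control probe sets and the dim ones below the 40th percentile of mean log2 value, 13576 were tested in a comparison. A comparison used only its own arrays, in limma 3.58.1 (lmFit and eBayes) in R 4.3.3, with Benjamini-Hochberg adjustment and a threshold of 0.05. Differences between effects were contrasts over 16 arrays (both KO comparisons) and 18 arrays (both gastrocnemius comparisons). Member probe sets under the dim filter were tested by exact two-sided permutation of the arrays. The fits were tested on simulated data. The platform annotation gave 1 symbol to 20393 probe sets, several to 691 and none to 1606.

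The members and the gene lists were chosen with earlier results of these data known. Named genes were every member probe set, each list gene with a call in a mutant comparison (otherwise the 2 of smallest p), and the 8 genes most like the members over 26 muscle arrays. A list was described by its brightest probe set per gene, and a gene counted as called when any of its probe sets passed. The shares beside these counts are over single probe sets, so genes with several probe sets had more than 1 way to be called. Alternatives were quantile normalization, common medians, pseudocounts of 1 and 200, no dim filter, a dim filter at the 60th percentile, trended and robust eBayes, array weights, a single fit of all 34 arrays, fits without 1 array each, a hepatocyte score as covariate, and leaving out arrays with a score over 13 at 3 months or 9.5 at 8 months. Replicate numbers only name arrays and pair none.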

Additional observations from a re-analysis of the deposited data

Results flagged for a closer look

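A test of the difference itself put the GSL30 effect in gastrocnemius below the KO effect for several genes, each given as the log2 difference, GSL30 minus KO. Of all probe sets, 1.65% passed with a lower and 0.648% with a higher GSL30 effect. Without the arrays of high hepatocyte score 55 probe sets passed in place of 312. In that fit Myh11 kept the call and Tagln and Acta2 lost it. The values that follow are from the fit of all arrays. The contractile genes were Myh11 (-1.97), Tagln (-1.33) and Acta2 (-0.89). Of 24 other smooth muscle genes tested, Mylk (-1.33) and Flna (-0.99) passed, and of 17 regulators Notch3 (-1.08) did. Of 14 endothelial markers 8 passed. They were Cdh5 (-1.95), Tie1 (-1.61), Pecam1 (-1.29), Esam (-1.28), Flt1 (-1.17), Cldn5 (-1.06) and Emcn (-0.85), and Egfl7 (-1.76) by a dimmer probe set. Of 9 pericyte markers Kcnj8 (-1.19) and Rgs5 (-0.80) passed, and 3 of the 9 had a positive difference. The same test also passed for 2 of 5 Schwann cell markers, Mbp (-1.21) and Pmp22 (-1.08). It passed for 2 of 6 adipocyte markers, Cidec (-1.61) and a dimmer probe set of Fabp4 (-1.97). Of 14 skeletal fibre markers it passed for the myosins Myh7 (-2.32) and Myh2 (-1.02). It put the GSL30 effect above the KO effect for Gadd45a (1.59) and Myog (1.23), 2 of 7 markers of developing or regenerating muscle.

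Single arrays lay far from the rest of their group in 4 of 97 sets of values checked, where chance alone would mark about 1 in 20. WT gastrocnemius replicate 4 at 8 months read 5393 for Acta2 while the other WT arrays read 7157 to 7622. KO liver replicate 4 read 69.9 for Cnn1 while the other KO liver arrays read 35.9 to 41.7. WT gastrocnemius replicate 2 at 3 months had the highest summed intensity of the other smooth muscle genes (273669, others 117650.0 to 136782) and of the skeletal fibre markers (1798160.0, others 428851 to 576629).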

How the results depend on the processing

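Tests rest on 3 to 5 arrays a group, and Cnn1 is dim. For the contractile genes, Myh11 kept its GSL30 call in 11 of 12 alternatives, Tagln in 11 and Acta2 in 10, besides arrays left out. With the hepatocyte score as covariate the GSL30 values were -1.12 for Myh11 (adjusted p = 0.105), -0.94 for Tagln (0.145) and -0.50 for Acta2 (0.242). Without arrays of high score Acta2 had -0.56 (0.0837), and in the GSL30 minus KO contrast Tagln had -1.18 (0.0654) and Acta2 -0.64 (0.255). In KO gastrocnemius Myh11 passed with a pseudocount of 200 (0.80), the 60th percentile filter (0.93), all 34 arrays (0.93), trended and robust eBayes (0.93), array weights (0.86) and the hepatocyte covariate (1.03), over a range of adjusted p of 9.00e-04 to 0.213. In KO tibialis Myh11 passed only with the 60th percentile filter (0.47, adjusted p = 0.0404), within a range of 0.0404 to 0.232 over its 10 alternatives. Acta2 in KO tibialis, near 0, turned to -0.086 with a common median, -0.078 with a common median over probe sets not bright in liver and -0.029 with array weights, and ran from -0.11 to 0.086 with each array left out. The common median moved the median of all probe sets by over 0.1 in both contrasts, to 0.16 for gastrocnemius minus tibialis (0.016 otherwise) and to -0.13 for GSL30 minus KO (-0.027 otherwise), where Myh11 had 0.61 and -2.07.

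Counts of called probe sets moved more. In KO tibialis (190) the count was 96 without a dim filter, 288 with the 60th percentile filter, 291 with all 34 arrays, 321 with trended and robust eBayes, 335 with array weights and 63 to 300 with an array left out (lowest without KO replicate 2). In KO gastrocnemius (20) it was 10 with a common median, 7 without a filter, 306 with all 34 arrays, 139 with array weights, 4 without arrays of high score and 7 to 25 with an array left out. In GSL30 (585) it was 259 without a filter, 1093 with all 34 arrays, 0 with the hepatocyte covariate, 153 without arrays of high score and 182 to 772 with an array left out. For gastrocnemius minus tibialis (2) it was 0 with either common median or no filter, 1 with a pseudocount of 1 or without arrays of high score, 6 with a pseudocount of 200, all 34 arrays or trended and robust eBayes, 5 with the 60th percentile filter and 0 to 7 with an array left out. For GSL30 minus KO (312) it was 193 without a filter, 670 with all 34 arrays, 687 with the hepatocyte covariate, 55 without arrays of high score and 152 to 448 with an array left out. The cause was not tested. With each array left out, Acta2 in GSL30 ran from -0.72 to -0.60. No paired analysis was possible because the labels give no numbers that tie an array of one group to an array of another. The list counts and list gene values under the hepatocyte settings were added after seeing the data.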
